A study of Mus musculus with 24 samples.

Results

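The value described here is a difference between knockout effects in the embryonic mouse kidney. It is the effect in the line labelled 3XKO, whose genotype label is Dmrt2; Hmx3; Hmx2 KO, minus the effect in the line labelled Hmx3; Hmx2 KO. Each effect is the log2 level in knockouts minus that in controls of the same line, so a positive difference means that a gene stood higher, against its own controls, in the triple line than in the Hmx line. The libraries were chosen by their labels, and 18 of the 24 in the series entered: 6 Hmx3; Hmx2 KO, 6 Hmx3; Hmx2 control, 3 labelled 3XKO and 3 labelled 3XKO control. All were poly(A) RNA of whole kidneys at embryonic day 18.5, read at 150 bp. The strain labels are Hmx2/Hmx3 and Dmrt2/Hmx2/Hmx3, and the sources used here describe neither the alleles nor the genotype behind the word control. The comparison asks what an added Dmrt2 mutation changes on top of the loss of Hmx3 and Hmx2.

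Intercalated cells are the acid-base cells of the collecting duct. Type A cells secrete acid through an apical proton pump, the V-ATPase, and return bicarbonate to the blood through the basolateral anion exchanger AE1, the product of Slc4a1. Type B cells, and those called non-A non-B, carry pendrin, the product of Slc26a4, an apical exchanger that secretes bicarbonate. Dmrt2 is a doublesex-related transcription factor found in type A cells, and Hmx2 and Hmx3 are homeobox genes lying next to each other in the genome. In whole kidneys, fewer cells of a type and less RNA per cell cannot be told apart.

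Libraries held 52286824 to 66031622 counted reads in Hmx3; Hmx2 KO, 55626702 to 91451356 in their controls, 94003922 to 113051369 in the libraries labelled 3XKO and 108185205 to 110421376 in the controls labelled for that line. Levels are in CPM, read counts relative to the TMM-scaled size of each library; the floor used here, 3 reads, corresponded to 0.0265 to 0.0574 CPM. Mitochondrial transcripts took 0.979% to 1.94% of the reads. Y-linked genes were expressed in 2 of 6 Hmx3; Hmx2 KO, 4 of 6 Hmx3; Hmx2 control, 2 of 3 labelled 3XKO and 2 of 3 labelled 3XKO control libraries. The Hmx line was deposited in a pair of tables (replicates 1 to 3 and 4 to 6) and the triple line in another, so line and table coincide, and only effects against controls of the same table are compared. Type A, type B and pan-intercalated markers were all detected, with 24 of 24 passing the filter on low counts.

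The targeted genes were examined first. Hmx2 held 8 reads over the 6 Hmx3; Hmx2 KO libraries and 2 reads over the 3 labelled 3XKO, against 807 and 872 reads in the respective controls. Both knockout groups were thus at or near the floor, and no ratio between their effects is given. Hmx3 did not pass the filter on low counts, with 6 and 0 reads in the knockouts against 34 and 30 in the controls. Dmrt2 went against its label. It stood at 18.1, 17.7 and 19.2 CPM in the 3 libraries labelled 3XKO, above the 10.5, 12.05 and 11.6 CPM of their controls, with no overlap. In the Hmx line it lay between 9.53 and 12.8 CPM in knockouts and between 7.99 and 9.98 CPM in controls. The Dmrt2 effect was 0.69 ± 0.08 (SE) in the triple line (edgeR, adjusted p = 7.5e-05). In the Hmx line it was 0.33 ± 0.06 (edgeR, adjusted p = 0.0397), so Dmrt2 RNA stood higher in knockouts of both lines. The difference was 0.36 ± 0.10, which was not called (adjusted p = 0.0724). Without a description of the allele, a transcript that remains does not settle whether the gene product does, so the groups keep the word labelled throughout.

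Over the genome, 293 of 21422 genes tested were called at an adjusted p under 0.05 (edgeR quasi-likelihood F test, Benjamini-Hochberg), which is 1.37%. The difference was positive for 187 (0.873%) and negative for 106 (0.495%), and the median over all genes tested was -0.01. It was of at least 1 log2 unit in 23 positive and 22 negative calls. Of the positive calls, 174 combined a fitted rise in the triple line with a fitted fall in the Hmx line, and 94 of the negative calls the opposite. Selection on the difference itself favours such opposite signs, and the share over all genes was not computed. The sign in the Hmx line was often uncertain, with effects of -0.06 ± 0.10 for Insrr and 0.05 ± 0.09 for S100g. The triple-line effect was the larger in size for 287 of the 293. Effects of the triple line rest on fewer libraries, and selection on the difference favours the less precise effect. For this count too, the share over all genes was not computed. The number of calls rested on the Hmx libraries used: with replicates 1 to 3 alone as the Hmx line 8 genes were called, and with replicates 4 to 6 alone 98. Without replicate 3 labelled 3XKO the count was 127, and without replicate 2 it was 185. Without replicate 3 of the controls labelled 3XKO control, the split turned, to 130 positive and 183 negative.

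**Figure D1:**
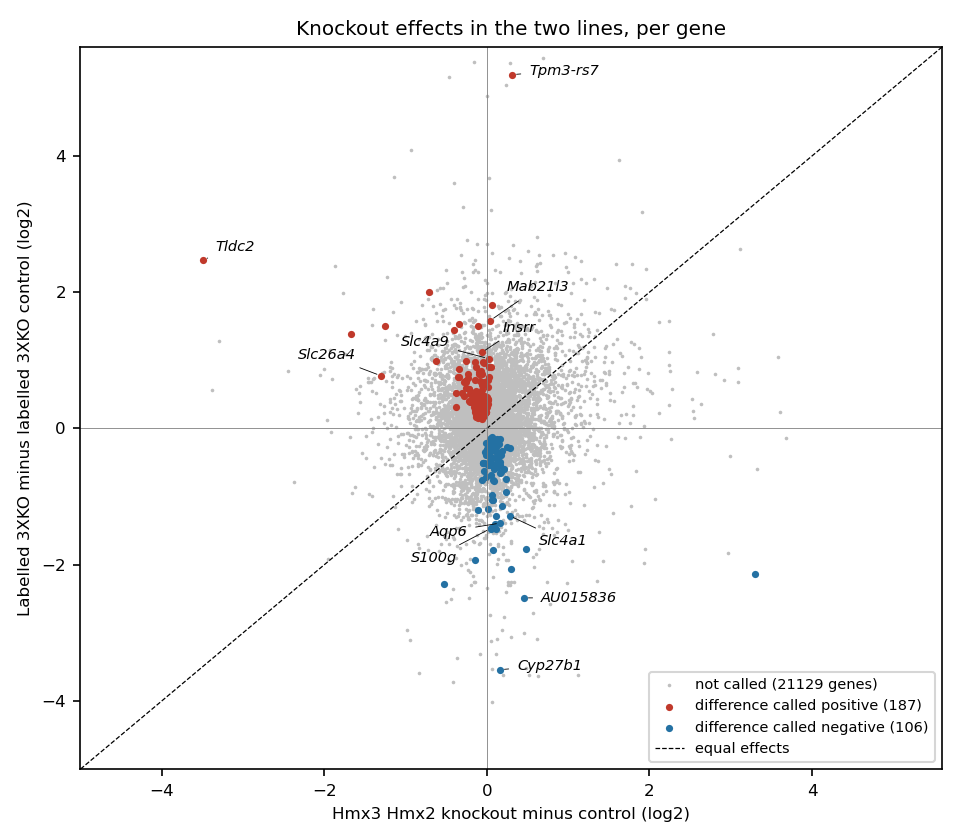
Each point is a tested gene, with the knockout effect in the Hmx line on the horizontal axis and that in the line labelled 3XKO on the vertical axis, both in log2; 9 genes lie outside the axes. Called genes are coloured by the sign of the difference, and most lie near 0 on the horizontal axis, with Tldc2 and Slc26a4 far to the left of it.

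Among type A genes the difference was called negative for the bicarbonate exchanger and for an intracellular water channel. The rest of the list was uncalled, from -0.02 (Kit) to -0.46 (Slc26a7), and all 5 members had a difference fitted below 0. Both lines entered into this, as all 5 were fitted above 0 in the Hmx line. In the triple line Kit (0.15 ± 0.06) and Adgrf5 (0.05 ± 0.10) were fitted above 0 as well, and the others below. Slc4a1, the AE1 gene, stood at 7.70, 5.97 and 8.12 CPM in the libraries labelled 3XKO and at 16.5, 20.6 and 15.9 CPM in their controls. In the Hmx line it lay between 20.5 and 25.4 CPM in knockouts (median 22.2) and between 16.6 and 20.8 CPM in controls (median 18.7). The groups were apart in the triple line and just overlapped in the Hmx line, where knockouts tended to be the higher. The effects were -1.28 ± 0.11 and 0.28 ± 0.08, and the difference was -1.56 ± 0.14 (adjusted p = 3.4e-06). Slc4a1 is also an erythroid gene. Of 8 erythroid genes tested 0 were called, against 1.37% of all genes, and their median difference was 0.28. Their summed level was 981 to 1376 CPM in libraries labelled 3XKO against 903 to 1101 CPM in the controls of that line.

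Aqp6, a water channel of type A intracellular vesicles, had 7.50, 5.05 and 6.97 CPM in the libraries labelled 3XKO and 19.7, 18.3 and 13.1 CPM in their controls. In the Hmx line it ranged from 8.06 to 18.1 CPM in knockouts and from 8.82 to 18.6 CPM in controls, so these groups overlapped almost fully. The difference was -1.56 ± 0.28 (adjusted p = 0.0135), called in 26 of the 29 alternatives and lost with either set of Hmx replicates alone and without the table term. Of the other type A genes, Kit, a receptor tyrosine kinase, differed by -0.02 ± 0.08, Adgrf5, an adhesion receptor of type A cells and endothelium, by -0.12 ± 0.12, and Slc26a7, a basolateral anion exchanger, by -0.46 ± 0.14 (adjusted p = 0.114). The list thus had 2 of 5 members called, both negative, against 0.495% of all genes, with a median of -0.46.

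The genes of bicarbonate-secreting cells went mostly the other way: 4 of 7 members of the type B and non-A non-B list were called positive and 1 negative, against 0.873% and 0.495% of all genes, with a median of 0.92. Slc26a4, the pendrin gene, was the list's largest. It stood at 7.48, 7.58 and 7.64 CPM in the libraries labelled 3XKO and at 4.64, 4.20 and 4.43 CPM in their controls. In Hmx3; Hmx2 KO it lay between 1.14 and 1.68 CPM (median 1.59), below all 6 controls at 2.77 to 4.52 CPM (median 3.53). The 2 lines thus moved in opposite directions, without overlap in either, with effects of 0.77 ± 0.16 and -1.30 ± 0.12. The difference was 2.08 ± 0.20 (adjusted p = 8.2e-06), a 4.22-fold ratio of the effects.

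Slc4a9 encodes AE4, a basolateral transporter of type B cells. It had 78.5, 82.7 and 97.3 CPM in the libraries labelled 3XKO and 40.4, 47.9 and 38.7 CPM in their controls, while in the Hmx line both groups lay between 40.7 and 51.9 CPM. The difference was 1.00 ± 0.11 (adjusted p = 0.000103), from effects of 1.03 ± 0.09 in the triple line and 0.02 ± 0.06 in the Hmx line. Insrr, the insulin receptor-related receptor that senses alkaline pH, stood at 36.5, 37.1 and 43.3 CPM against 19.7, 16.7 and 17.5 CPM, with both Hmx groups between 13.3 and 20.2 CPM. Its difference was 1.18 ± 0.17 (adjusted p = 0.00273), and it missed the threshold only with Hmx replicates 1 to 3 alone (adjusted p = 0.0519). Sh2d4b, an SH2-domain gene, had 2.89, 2.45 and 3.18 CPM in the libraries labelled 3XKO against 1.99, 1.45 and 1.30 CPM in their controls. Its difference of 0.92 ± 0.22 (adjusted p = 0.0401) was called in 12 of 29 alternatives.

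Oxgr1, the receptor for alpha-ketoglutarate on these cells, was the negative member, at -0.52 ± 0.13 (adjusted p = 0.0389, called in 14 of 29 alternatives). Its groups overlapped in the triple line, at 14.1, 12.8 and 15.7 CPM labelled 3XKO and 19.7, 17.7 and 14.03 CPM in the controls. In the Hmx line they did not, with knockouts at 15.4 to 17.9 CPM above controls at 12.9 to 15.2 CPM, and the effects were -0.27 in the triple line and 0.25 in the Hmx line. Slc4a8, a sodium-driven bicarbonate exchanger, differed by 0.02 ± 0.10. Spink8, a protease inhibitor gene, differed by -0.81 ± 0.24 (adjusted p = 0.117).

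**Figure D2:**
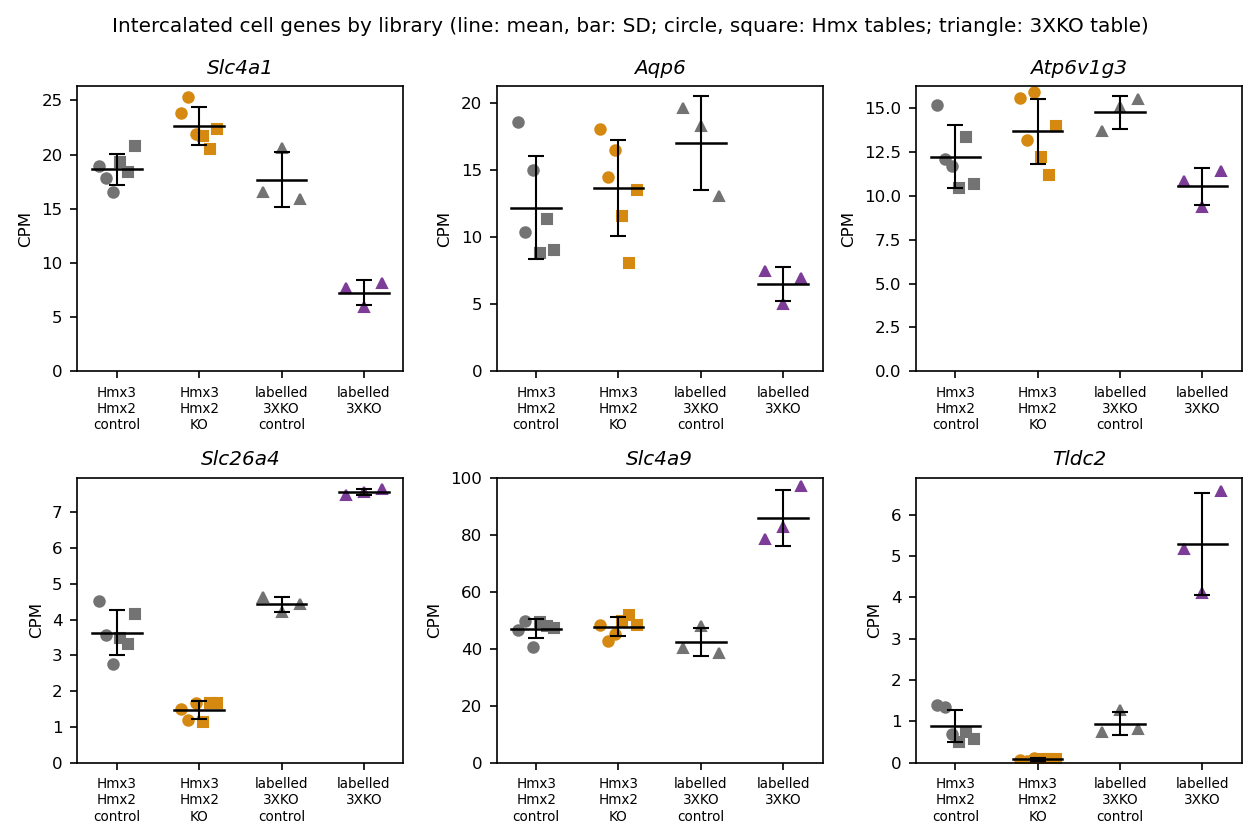
CPM of 6 genes in each of the 18 libraries (points; circles and squares are the 2 Hmx tables, triangles the triple line), with the mean and SD of each group. Slc4a1, Aqp6 and Atp6v1g3 are lowest in the libraries labelled 3XKO, while Slc26a4, Slc4a9 and Tldc2 are highest there, and Slc26a4 and Tldc2 are lowest in Hmx3; Hmx2 KO.

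Tldc2, a TLDc-domain gene of the family whose members bind the V-ATPase, had the largest positive difference of the named genes. It stood at 5.17, 4.11 and 6.57 CPM in the libraries labelled 3XKO and at 0.747, 1.28 and 0.822 CPM in their controls. In Hmx3; Hmx2 KO it lay between 0.0301 and 0.106 CPM, on 2 to 6 reads a library, against 0.507 to 1.403 CPM in the Hmx controls. The effects were 2.48 ± 0.30 and -3.49 ± 0.31, and neither line's groups overlapped. The difference was 5.97 ± 0.44 (adjusted p = 1.3e-07), but its size rests on 26 reads over the 6 Hmx3; Hmx2 KO libraries.

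Promoters of some genes of the pattern are printed from RefSeq (build GRCm38.p6), as the 250 bases before the annotated start, read on the gene's strand. The promoter set used had no entry for Slc4a1, Slc4a9, Insrr and Calb1. Slc26a4 and Tldc2 had effects of opposite sign in the 2 lines, Aqp6 was a called type A gene, and Cyp27b1, described further on, had the largest negative difference of the named genes. Capitals mark the letters CAAGTG or their reverse complement CACTTG, a core of the motif bound by HMX proteins.
Slc26a4, chr12:31559985-31560234, minus strand: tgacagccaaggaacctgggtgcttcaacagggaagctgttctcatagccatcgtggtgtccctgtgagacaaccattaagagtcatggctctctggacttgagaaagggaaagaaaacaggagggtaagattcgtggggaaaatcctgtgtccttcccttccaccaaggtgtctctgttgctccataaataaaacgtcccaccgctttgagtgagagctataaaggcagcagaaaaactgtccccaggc
Tldc2, chr2:157086760-157087009, plus strand: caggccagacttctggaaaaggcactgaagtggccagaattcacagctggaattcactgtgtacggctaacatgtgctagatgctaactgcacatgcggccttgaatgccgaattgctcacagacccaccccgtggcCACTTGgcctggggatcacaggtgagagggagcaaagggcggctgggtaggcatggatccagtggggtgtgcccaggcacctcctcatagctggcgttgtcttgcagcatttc
Aqp6, chr15:99600950-99601199, plus strand: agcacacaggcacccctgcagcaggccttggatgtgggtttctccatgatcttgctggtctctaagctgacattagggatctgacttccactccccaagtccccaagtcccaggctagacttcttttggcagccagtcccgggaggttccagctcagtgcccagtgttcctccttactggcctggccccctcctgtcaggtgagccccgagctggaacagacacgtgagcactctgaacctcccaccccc
Cyp27b1, chr10:127047996-127048245, plus strand: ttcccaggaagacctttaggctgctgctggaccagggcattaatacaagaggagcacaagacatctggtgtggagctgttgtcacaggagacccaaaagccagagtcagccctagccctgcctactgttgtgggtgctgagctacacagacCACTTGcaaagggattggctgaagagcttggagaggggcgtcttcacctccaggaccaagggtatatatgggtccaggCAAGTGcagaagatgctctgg
The Tldc2 window held 1 such match and the Cyp27b1 window 2, while the Slc26a4 and Aqp6 windows held 0. Of 32851 mouse promoter windows of this length, 11.61% held at least 1 match on either strand. The DMRT core ACANTGT (6.466% of windows) and the forkhead core GTAAACA (3.166%) were in none of the 4 windows. A match is a string of letters and no evidence of binding.

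Of the genes shared by all intercalated cells, 10 of 12 had a difference fitted below 0 and 2 above, with a median of -0.23. Both lines entered into this: every member was fitted above 0 in the Hmx line, none of them called there. In the triple line the effects went either way, from -0.49 (Atp6v1g3) to 0.35 (Hepacam2). Foxi1 had 0.08 in the triple line and 0.19 in the Hmx line, and Tfcp2l1 had -0.08 and 0.19. In that list 1 of 12 members was called, negative, against 0.495% of all genes. DESeq2 called 3 of the 12, and 4.40% of all the genes it tested. The called member was Atp6v1g3, an intercalated-cell subunit of the V-ATPase. It stood at 10.9, 9.37 and 11.4 CPM in the libraries labelled 3XKO, below the 13.7, 15.1 and 15.5 CPM of their controls, and between 10.4 and 15.9 CPM in both Hmx groups. Its difference was -0.64 ± 0.14 (adjusted p = 0.0240). Foxi1, the factor needed for intercalated cells to form, differed by -0.12 ± 0.08, with 41.2 to 44.8 CPM labelled 3XKO and 39.8 to 41.8 CPM in the controls. Tfcp2l1, another factor of these cells, differed by -0.27 ± 0.10.

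The remaining members did not pass the test. Among pump subunits, Atp6v1b1 differed by 0.05 ± 0.11, Atp6v1c2 by -0.26 ± 0.12, Atp6v0a4 by -0.30 ± 0.09 and Atp6v0d2 by -0.38 ± 0.10 (adjusted p = 0.0546). Car2, the cytosolic carbonic anhydrase, differed by -0.23 ± 0.16. The ammonia transporters Rhbg and Rhcg differed by -0.24 ± 0.18 and -0.12 ± 0.09, the surface protein gene Hepacam2 by 0.34 ± 0.17, and Bsnd, a chloride channel subunit, by -0.14 ± 0.12. Of 18 other V-ATPase subunits, 15 were fitted below 0 and 2 were called negative (0.495% of all genes were), with a list median of -0.17. These were Atp6v1b2, the broadly expressed B subunit, at -0.29 ± 0.06 (adjusted p = 0.0252) and Atp6v1h at -0.29 ± 0.06 (adjusted p = 0.0116). Of 13 carbonic anhydrase genes tested besides Car2, 0 were called (median -0.09), against 1.37% of all genes.

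Cyp27b1, of vitamin D activation, had the most negative difference of the named genes, and the calcium-binding protein genes S100g and Calb1 were also called negative. Cyp27b1 encodes the 1-alpha-hydroxylase of the proximal tubule, which makes active vitamin D. It stood at 13.8, 13.4 and 10.8 CPM in the libraries labelled 3XKO and at 191, 196 and 54.2 CPM in their controls, where replicate 3 was far below the other pair. In the Hmx line it ranged from 119 to 181 CPM in knockouts and from 99.6 to 176 CPM in controls. The difference was -3.71 ± 0.45 (adjusted p = 0.00187). Without control replicate 3 it was -4.10, still called, and it was lost only with either set of Hmx replicates alone.

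S100g, the gene of the vitamin D-induced calcium-binding protein calbindin-D9k, had 61.1, 61.8 and 61.3 CPM in the libraries labelled 3XKO. Their controls had 193, 184 and 133 CPM, and both Hmx groups lay between 140 and 230 CPM. The difference was -1.51 ± 0.16 (adjusted p = 6.1e-04). Calb1, the gene of calbindin-D28k and a marker of distal and connecting tubule and ureteric epithelium, stood at 70.2, 78.3 and 64.6 CPM against 152, 194 and 125 CPM. Its difference was -1.33 ± 0.22 (adjusted p = 0.00857), and the Hmx groups overlapped widely, between 99.4 and 204 CPM.

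Of the 9 genes on the vitamin D and calcium transport list, 2 were called, both negative, against 0.495% of all genes, with a median of -0.10. Vdr, the vitamin D receptor, differed by -0.09 ± 0.08. Cyp24a1, the 24-hydroxylase that degrades vitamin D and responds to it, had 30.0, 27.9 and 27.0 CPM in the libraries labelled 3XKO and 52.3, 65.55 and 59.99 CPM in their controls. Its level also varied between the Hmx tables, with a small overlap, from 51.8 to 75.9 CPM in the libraries of replicates 1 to 3 and from 18.2 to 52.6 CPM in those of replicates 4 to 6. The difference was -1.22 ± 0.40 (adjusted p = 0.166). Kl, the gene of the FGF23 co-receptor Klotho, chosen after its value was seen, differed by -0.68 ± 0.11 (adjusted p = 0.00387, called in 26 of 29 alternatives).

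Of 12 proximal tubule genes, 8 were fitted below 0 and 1 was called, negative, against 0.495% of all genes; their median was -0.14 and their range -1.39 (Pck1, uncalled) to 0.21 (Slc5a2, uncalled). Fbp1, an enzyme of gluconeogenesis, was that gene, at 229, 194 and 223 CPM labelled 3XKO against 414, 420 and 269 CPM, with a difference of -0.86 ± 0.16 (adjusted p = 0.0153). Control replicate 3 was again the lowest of its group. The same held for Anpep, the brush-border aminopeptidase N, at 1909, 1361 and 774 CPM in those controls against 525, 453 and 476 CPM labelled 3XKO. Its difference of -1.53 ± 0.30 (adjusted p = 0.0250) was called in 22 of 29 alternatives. The summed level of the list was 4185 to 4404 CPM labelled 3XKO and 4009 to 4795 CPM in the controls, so the groups overlapped.

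**Figure D3:**
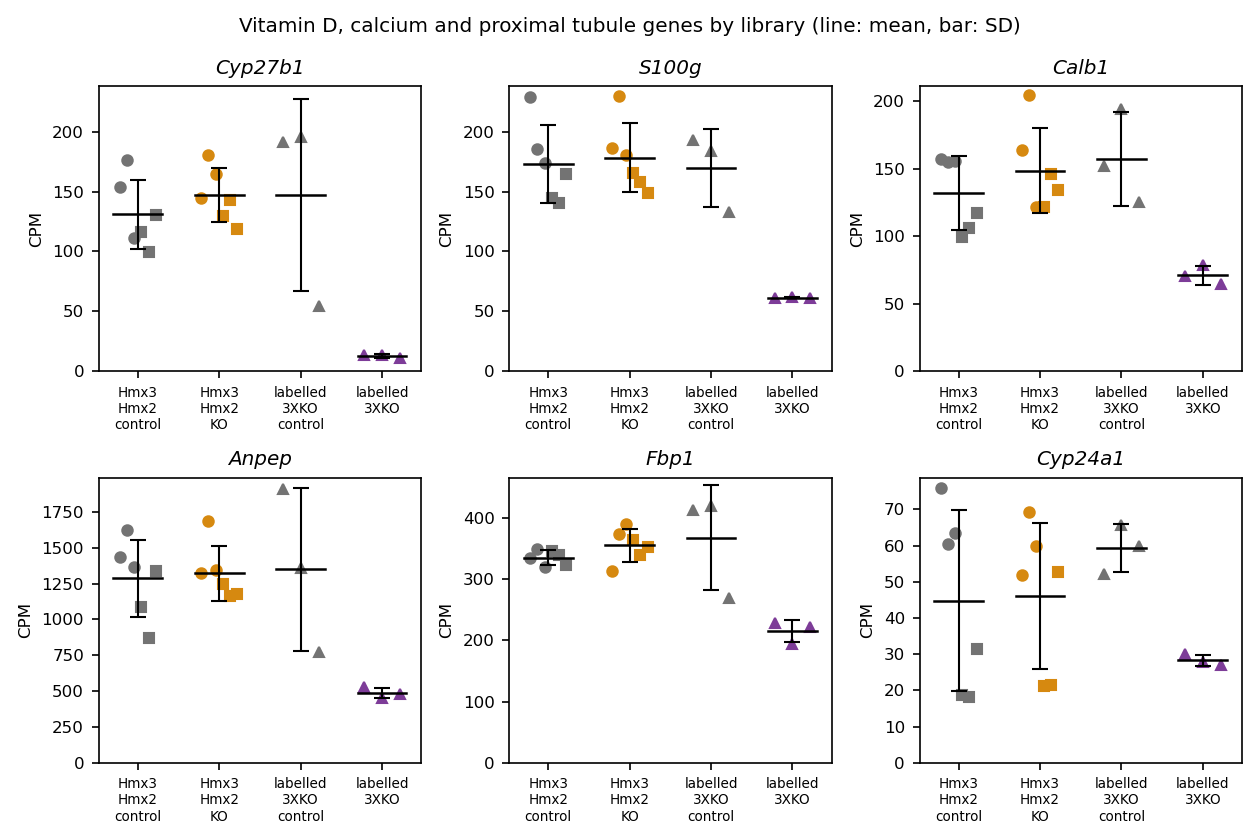
CPM of 6 genes of vitamin D, calcium and the proximal tubule in the 18 libraries, with mean and SD per group. All 3 libraries labelled 3XKO sit below their controls in each panel, and replicate 3 of those controls (the right-hand triangle) is the lowest control for Cyp27b1, S100g, Calb1, Anpep and Fbp1.

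The other named negative differences were in genes at lower levels. Slitrk1, a transmembrane gene best known in neurons, differed by -1.86 ± 0.30 (adjusted p = 0.00354). Slc22a26, an organic anion transporter gene, differed by -1.76 ± 0.32, Acat3, an acetyl-CoA acetyltransferase gene, by -1.59 ± 0.28, and Cd8a, a T cell co-receptor gene, by -1.78 ± 0.34. Cd8a stood at 0.42 to 0.50 CPM labelled 3XKO against 1.498 to 1.98 CPM in controls, and the defining Cd3d, Cd3e and Cd3g did not pass the low-count filter. S100a8, a neutrophil gene, was at the threshold, with -1.402 ± 0.35 (adjusted p = 0.04998, called in 12 of 29 alternatives). Tmem252 differed by -1.503 ± 0.26 (adjusted p = 0.0118) and Gldc, the glycine cleavage decarboxylase gene, by -0.81 ± 0.14. These last lie on chromosome 19 within 5 Mb of Dmrt2 (mm39: Dmrt2 at 25649775-25656355, Tmem252 at 24651372-24659597, Gldc at 30075847-30152829), where 2 of 71 tested genes were called, against 1.37% of all genes. Within 5 Mb of Hmx2, edgeR called 0 of 164, against 1.37% of all genes. An unadjusted edgeR p under 0.05 was held by 24 of them, and by 14.2% of all genes tested. DESeq2 called 5 of them, and 4.40% of all the genes it tested.

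Of the other named positive differences, Mab21l3 was the clearest, at 19.3, 16.1 and 13.8 CPM labelled 3XKO against 6.09, 4.53 and 5.77 CPM. Both Hmx groups lay between 4.06 and 6.67 CPM, and the difference was 1.54 ± 0.24 (adjusted p = 0.00312). Aqp8, a water channel gene, differed by 1.75 ± 0.34 on levels of 1.39 to 1.64 CPM labelled 3XKO against 0.402 to 0.492 CPM. Prr33, named for a proline-rich protein but typed as long non-coding RNA in the annotation used, differed by 1.03 ± 0.17. Ptprz1, a receptor phosphatase gene, differed by 1.02 ± 0.20, and Adam8, a metalloprotease gene, by 0.97 ± 0.21. Cyp4a10, a fatty acid hydroxylase gene, differed by 1.12 ± 0.26, called in 9 of 29 alternatives. Kdm6bos, an antisense transcript counted without strand, and Tmod4, a tropomodulin gene, differed by 1.88 ± 0.46 and 1.84 ± 0.43, called in 13 and 15 of 28 alternatives and all under 2 CPM.

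Genes with clone-like symbols or near-identical copies made up 33 of the 293 calls and are uncertain. They were 30 of the positive calls (16.04%) and 3 of the negative ones (2.83%), against 25.1% of the genes tested. The 3 largest positive were Tpm3-rs7 (4.88 ± 1.07), Gm43609 (1.62 ± 0.39) and Gm10060 (1.62 ± 0.28). The 3 largest negative were AU015836 (-2.95 ± 0.42), Gm17783 (-2.25 ± 0.45) and 4931406C07Rik (-0.55 ± 0.13). Tpm3-rs7, a tropomyosin-related copy, was split within its own group: 69.1 and 63.6 CPM in replicates 1 and 3 labelled 3XKO, and 1.39 CPM in replicate 2. Its controls lay at 1.06 to 1.35 CPM, and it was called in 6 of 29 alternatives.

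Most gene lists for other cells held no call. That was so for 9 principal cell genes (median -0.19, all 9 fitted below 0), 22 Notch pathway genes (0.11, 19 fitted above 0), 6 ureteric tip genes (0.05), 6 of the thick ascending limb (-0.04), 5 of the distal convoluted tubule (-0.61), 6 nephron progenitor genes (0.11, all 6 fitted above 0) and 8 podocyte genes (-0.11). Aqp2 and Aqp3, water channels of principal cells, differed by -0.45 ± 0.25 and -0.30 ± 0.10. No call was made either among 9 stromal (0.02), 7 endothelial (-0.02), 7 macrophage (-0.24), 5 adrenal (-0.58), 5 skeletal muscle (0.07), 2 adipose (2.37), 10 liver-type (-0.49), 8 proliferation (-0.13) and 9 immediate early and heat shock genes (0.16, all 9 fitted above 0). The adipose median lies between Fabp4 at -0.07 and Cidec at 4.81. Cidec had a mean of 0 CPM in the controls labelled 3XKO control and at most 0.0736 CPM in any group, near the floor. The ureteric epithelium had 1 of 9 called (Calb1, median -0.02), and the T cell list 1 of 3 tested (Cd8a, -0.03). Both calls were negative, as were 0.495% of all genes. The 9 interferon and antigen presentation genes were all fitted below 0 (median -0.82) with 0 called. Their summed level was 256 to 293 CPM labelled 3XKO, 341 to 487 CPM in the controls of that line, 205 to 348 CPM in Hmx3; Hmx2 KO and 210 to 335 CPM in its controls, so the controls of the triple line ranged highest but overlapped with Hmx3; Hmx2 KO. Over the 19 lists with no edgeR call (154 genes, erythroid genes and carbonic anhydrases included), 33 of the 154 lay at an unadjusted edgeR p below 0.05. That was a larger share than the 14.2% of all genes tested. DESeq2 called 7 of the 154, 3 of them of the distal convoluted tubule, and 4.40% of all the genes it tested. The part of these cell types and signals in the called genes was not tested.

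**Figure D4:**
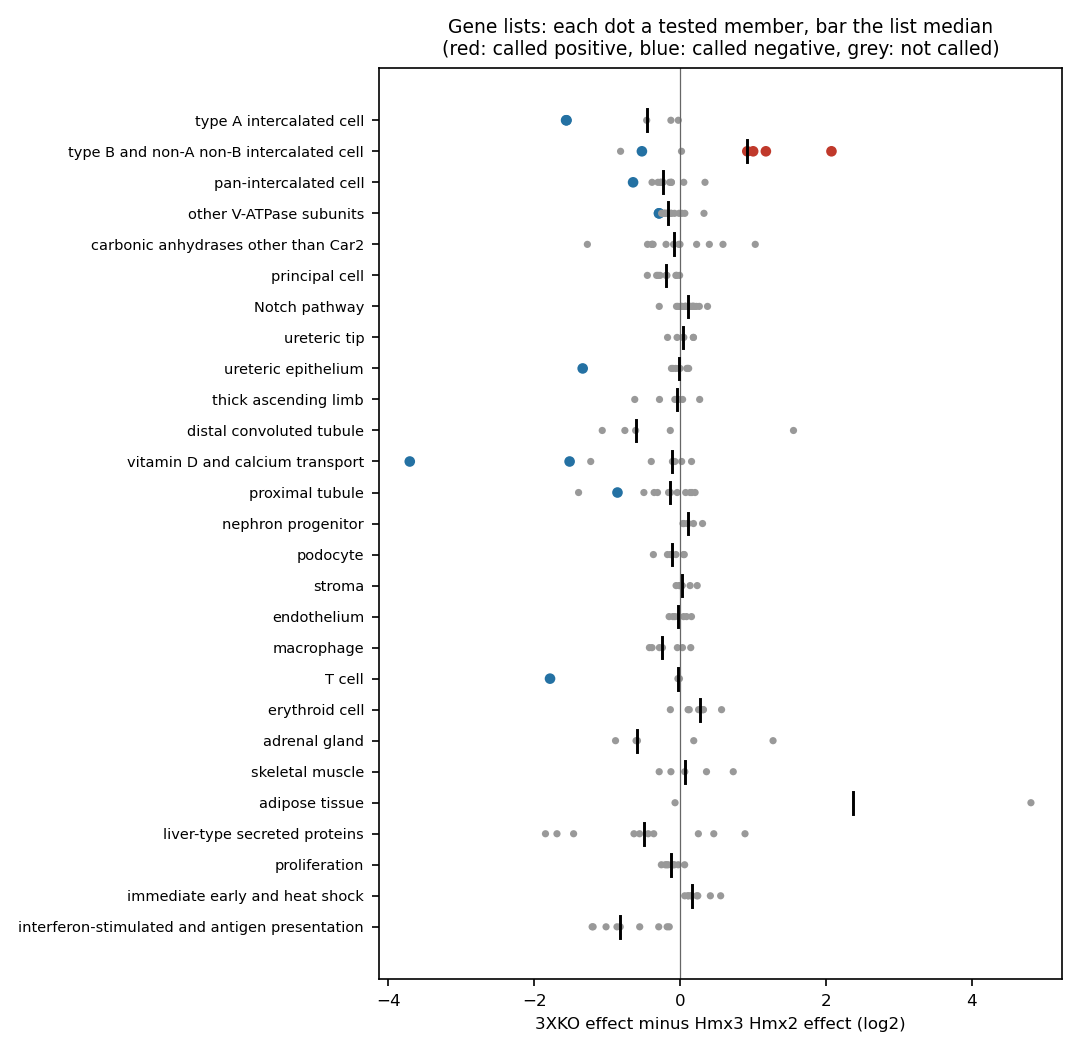
Difference in knockout effect (log2, horizontal axis) of every tested member of 27 gene lists, with the list median as a black bar and called members in red (positive) or blue (negative). Red members appear in the type B and non-A non-B list alone, Cyp27b1 at -3.71 is the lowest dot, and the uncalled adipose gene Cidec at 4.81 the highest.

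The difference was then set beside the effect of the Dmrt2 line, which has its own 3 Dmrt2 KO and 3 Dmrt2 control libraries. Y-linked genes were expressed in 1 of the 3 Dmrt2 KO and in 3 of the 3 Dmrt2 control libraries, so sex and genotype partly coincide in that line. A test of all 24 libraries asked for which genes the difference departs from that effect. A value of 0 means that the effects of the Hmx and Dmrt2 lines add up, in log2, to that of the triple line. In that fit the effect on Dmrt2 RNA was -2.80 in the Dmrt2 line and 0.68 in the triple line. Whether both lines carry the same Dmrt2 mutation was not tested. A departure therefore cannot be told apart from a difference between the Dmrt2 mutations of these lines. It called 88 of 22101 genes (0.398%), 59 positive (0.267%) and 29 negative (0.131%). Of these, 53 were also among the 293, but both tests contain the same difference from the same libraries, so overlap is partly built in. The 88 fell to 32 with the Y-linked level as a covariate, to 33 without replicate 3 labelled 3XKO, to 34 and 40 without Dmrt2 KO replicates 2 and 3, to 40 without 3XKO control replicate 3 and to 58 without Hmx3; Hmx2 control replicate 1. Without Dmrt2 control replicate 3 they rose to 138.

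Several of the main genes were not called as departing. Slc26a4 stood at 16.3, 14.9 and 17.4 CPM in Dmrt2 KO against 3.88, 3.39 and 6.32 CPM in Dmrt2 control, an effect of 1.84 ± 0.18 beside the difference of 2.08. The departure was 0.24 ± 0.29 (adjusted p = 0.807). Cyp27b1 stood at 9.72, 9.45 and 8.37 CPM against 43.9, 91.9 and 146 CPM, an effect of -3.36 ± 0.43 beside -3.71. Its departure was -0.35 ± 0.63 (adjusted p = 0.885). The Slc4a1 effect in Dmrt2 KO, at 3.13, 3.67 and 4.33 CPM against 18.3, 15.5 and 17.0 CPM, was -2.18 ± 0.13 beside -1.56, a departure of 0.62 ± 0.19 (adjusted p = 0.187). For Slc4a9 and Insrr the departures were 0.49 ± 0.13 (adjusted p = 0.123) and 0.57 ± 0.20 (adjusted p = 0.270), and for S100g -0.48 ± 0.32 (adjusted p = 0.606). A p over the threshold does not show that the effects add up.

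Other genes did depart. Dmrt2 itself stood at 2.14, 2.26 and 1.56 CPM in Dmrt2 KO against 12.2, 13.95 and 14.9 CPM in Dmrt2 control. Its effect there was -2.80 ± 0.11, while the difference was 0.36, and the departure was 3.16 ± 0.17 (adjusted p = 2.0e-12). Aqp6 stood at 0.840, 0.909 and 0.610 CPM in Dmrt2 KO against 12.04, 13.2 and 18.4 CPM, an effect of -4.24 ± 0.28. The difference of -1.56 fell short of it by 2.69 ± 0.39 (adjusted p = 0.00331). Kit had 38.8, 37.8 and 33.3 CPM against 52.3, 54.5 and 54.9 CPM, an effect of -0.56 ± 0.07 beside a difference of -0.02 (departure 0.53 ± 0.11, adjusted p = 0.0177). With the Y-linked covariate the Kit departure was 0.50 and missed the threshold (adjusted p = 0.0736).

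Tldc2 stood at 9.55, 9.98 and 9.05 CPM in Dmrt2 KO against 1.24, 1.41 and 1.63 CPM, an effect of 2.74 ± 0.26. Its effect in the line labelled 3XKO was 2.48; the 2 were not tested against each other. The departure was 3.24 ± 0.46 (adjusted p = 0.0015). Prr33 departed by 1.23 ± 0.25 (adjusted p = 0.0274), called in 23 of 30 alternatives and lost with the Y-linked covariate, the replicate block and 5 of the libraries left out. Tmod4 departed by 3.29 ± 0.52 and the clone-like Gm17783 by -4.01 ± 0.63. Tpm3-rs7 departed by 10.5 ± 1.24, with 95.5 to 105 CPM in Dmrt2 control and 1.94 to 2.21 CPM in Dmrt2 KO, so that the controls held the high level in that line. Dmrt2, Aqp6, Tldc2, Tmod4, Tpm3-rs7 and Gm17783 stayed called in all alternatives run for this test.

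**Figure D5:**
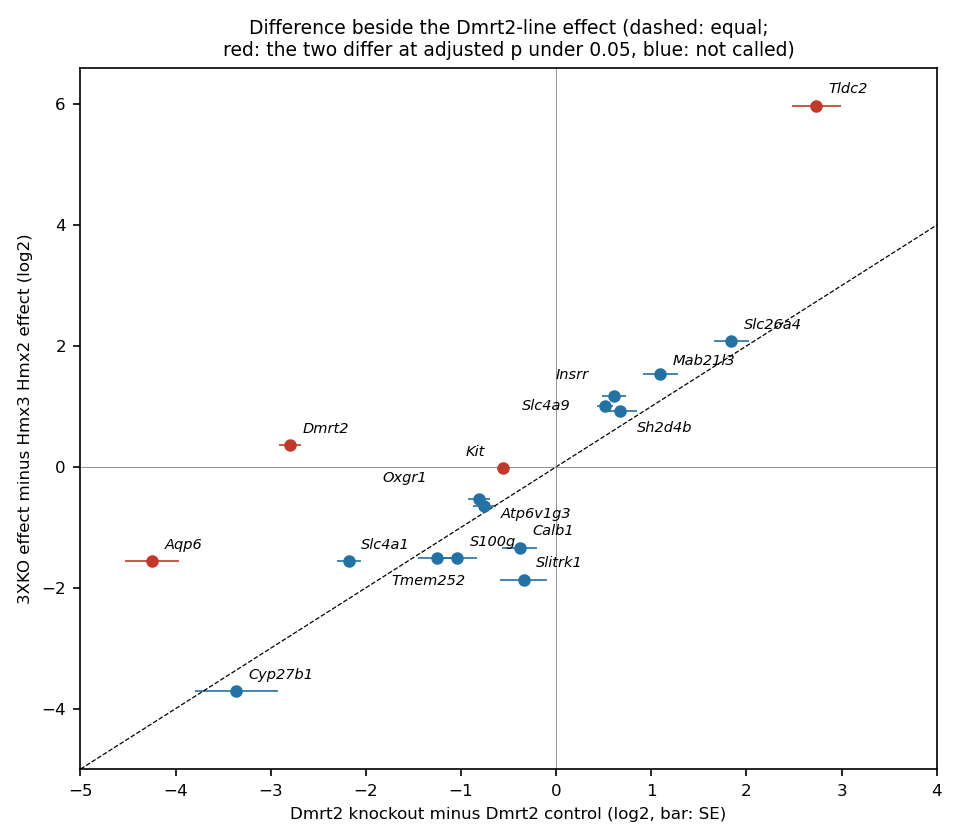
For 17 named genes, the effect in the Dmrt2 line (horizontal axis, log2, bar: SE) beside the difference of the triple and Hmx lines (vertical axis, log2). Genes on the dashed line have equal values; Dmrt2, Aqp6, Kit and Tldc2 (red) departed at an adjusted p under 0.05.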

How the data were processed

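The authors deposited raw read counts per gene, without normalization, in separate tables per line. The submitters' processing notes name fastp 0.20.1, STAR 2.7.0e, featureCounts 2.0.1 (2.0.3 per the file headers) and the build mm39. Per the file headers, reads and not pairs were counted, without strand and without multi-mapping reads, and 87.9% to 94.1% of low counts were even. The 2 deposited columns of no sample were not used. Counting error is understated by pairs and by missing molecular identifiers.

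Counts of 18 libraries were tested with edgeR 4.0.16 (R 4.3.3), after filterByExpr (minimum count 10, total 15) and TMM scaling. The model had group and deposited table as terms, the test was glmQLFTest with a robust fit, and p-values were adjusted over all genes tested by Benjamini-Hochberg. A gene past 0.05 is called. SE is the absolute log2 value divided by the square root of F. A second test used 24 libraries. DESeq2 1.42.0 was an alternative. The code was checked on simulated counts with the same dispersion for every gene and without read pairs. That check does not measure the error rate in these data. None of the 18 pairs of libraries of the same group and deposited table agreed within sampling noise. The labels do not say that libraries came from separate embryos, and p-values cover the spread among libraries only, which may be technical.

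Named genes were the 3 targets, the intercalated cell lists, the 12 largest calls in each direction with a mean of at least 0.5 CPM in a group, called list members, up to 2 uncalled examples a list, calls within 5 Mb of Dmrt2 or Hmx2, and 3 clone-like genes a direction. The members and lists were chosen with earlier results of these data known. Coordinates are those of the deposited tables (mm39) except for RefSeq promoters (GRCm38.p6). Alternatives changed scaling, tool, filter, replicate block, sex covariate, Hmx libraries, table term, and left out each library.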

Additional observations from a re-analysis of the deposited data

Results flagged for a closer look

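Of 130 groups of 6 Hmx libraries examined over the named genes, 10 held a library far from the others, where chance flags about 1 in 20 groups. In Hmx3; Hmx2 KO these were replicate 1 for Slc26a7 (15.4 CPM), Atp6v1b2 (189 CPM) and Hmx3 (0.0650 CPM, 4 reads), and replicate 2 for Cd8a (2.17 CPM) and Anpep (1683 CPM). In Hmx3; Hmx2 control they were replicate 3 for Slc4a9 (40.7 CPM), Slc4a8 (27.3 CPM), Tfcp2l1 (519 CPM) and Hepacam2 (5.13 CPM), and replicate 5 for Mab21l3 (6.51 CPM).

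The knockout effect itself differed between the 2 lines for 42 genes named in the text, by the test of that difference. Among them Kl, Pabpn1, Clk2, Ddx17 and Mdh2 lie outside the naming rule and were picked after their values were seen. In log2 the positive ones were Tldc2 5.97, Tpm3-rs7 4.88, Slc26a4 2.08, Kdm6bos 1.88, Tmod4 1.84, Aqp8 1.75, Gm43609 1.62, Gm10060 1.62, Mab21l3 1.54, Insrr 1.18, Cyp4a10 1.12, Prr33 1.03, Ptprz1 1.02, Slc4a9 1.00, Adam8 0.97, Sh2d4b 0.92, Pabpn1 0.53, Clk2 0.40 and Ddx17 0.23. The negative ones were Cyp27b1 -3.71, AU015836 -2.95, Gm17783 -2.25, Slitrk1 -1.86, Cd8a -1.78, Slc22a26 -1.76, Acat3 -1.59, Slc4a1 -1.56, Aqp6 -1.56, Anpep -1.53, S100g -1.51, Tmem252 -1.503, S100a8 -1.402, Calb1 -1.33, Fbp1 -0.86, Gldc -0.81, Kl -0.68, Atp6v1g3 -0.64, 4931406C07Rik -0.55, Oxgr1 -0.52, Mdh2 -0.30, Atp6v1b2 -0.29 and Atp6v1h -0.29. The difference departed from the Dmrt2-line effect by 10.5 for Tpm3-rs7, 3.29 for Tmod4, 3.24 for Tldc2, 3.16 for Dmrt2, 2.69 for Aqp6, 1.23 for Prr33, 0.53 for Kit and -4.01 for Gm17783.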

How the results depend on the processing

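Against 293 calls (187 positive, 106 negative), DESeq2 made 730 (428, 302), Hmx replicates 1 to 3 alone 8 (6, 2), Hmx replicates 4 to 6 alone 98 (52, 46) and a fit without the table term 56 (34, 22). A mean of at least 1 CPM in place of the count filter gave 386, of which 72.3% were positive against 63.8%. Leaving out each library gave 127 to 356 calls (75 to 242 positive, 52 to 183 negative). Replicate numbers did not pair the libraries: correlations of deviations ran from -0.30 to 0.27 over 9 pairs, 3 of them over 0.1, and 3 were highest with their own number. A replicate block gave 238 calls (130, 108). Type A members called were 2 with each library left out, and 1 in each of the Hmx subsets and without the table term. For type B and non-A non-B the main 5 became 3 under the replicate block, 2 and 3 with Hmx replicates 1 to 3 and 4 to 6, 3 without the table term and 3 to 5 with a library left out. The 1 pan-intercalated call became 3 with DESeq2, 2 without a filter, 0 with either Hmx subset, 0 without the table term and 0 to 3 with a library left out. The 88 departures from the Dmrt2-line effect became 246 with DESeq2, 32 with the Y-linked covariate, 60 with the replicate block and 33 to 138 with a library left out. Uncalled values near 0 changed sign: Kit to 0.00160 at a mean of at least 1 CPM, 0.035 with Hmx replicates 4 to 6 and -0.062 to 0.023 with a library left out, Atp6v1b1 to -0.032 with Hmx replicates 1 to 3, Slc4a8 -0.017 to 0.062 with a library left out, and the Slc26a4 departure to -0.078 (-0.078 to 0.42 with a library left out). Of the 42 called genes named in the text, those picked outside the naming rule included, 0 changed direction. Slc4a1, Slc26a4, Slc4a9, Tldc2, Gm10060 and Pabpn1 (one of those picked) stayed called in every alternative. The Hmx subsets held fewer libraries, an equal number in each, and the cause of these shifts was not tested. Depth limits Hmx2, Hmx3 and Tldc2, which lay near the floor in Hmx3; Hmx2 KO.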

Other observations

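Some called genes outside the naming rule were picked out singly, after their values were seen, and stand for no group. Pabpn1, the nuclear poly(A)-binding protein gene, differed by 0.53 ± 0.08 (adjusted p = 0.00279), Clk2, a kinase of splicing factors, by 0.40 ± 0.06 (adjusted p = 0.00279), and Ddx17, an RNA helicase gene, by 0.23 ± 0.04 (adjusted p = 0.00902). Mdh2, of the citric acid cycle, differed by -0.30 ± 0.07 (adjusted p = 0.0250, called in 21 of 29 alternatives).

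Over all calls, 28 of the 187 positive calls and 0 of the 106 negative calls were of a long non-coding RNA type, which made up 14.97% of positive calls and 16.2% of the genes tested. Transcripts of that type took 0.949% to 1.14% of reads in libraries labelled 3XKO and 0.864% to 1.06% in their controls.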
